A study of Mus musculus with 15 samples.

Results

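Knockout of Sirt3 was compared with wildtype in the gastrocnemius, the large calf muscle, of male C57BL/6 mice that were fed a control diet until 12 months of age. The comparison used 7 of the 15 arrays of the study: 4 labelled as Sirt3 knockout on the control diet and 3 labelled as wildtype on the same diet, chosen by those labels alone, with RNA of 1 mouse on each array. The other 8 arrays came from mice of the same strain, sex and age under calorie restriction (CR), 4 wildtype and 4 knockout. They were used for the shared estimate of the spread and to set the genotype difference on CR beside that on the control diet. The sources used here do not give the knockout allele, the cells in which it acts, the length and degree of the restriction or the feeding state at tissue collection.

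SIRT3 is an NAD-dependent deacetylase of the mitochondrial matrix. It removes acetyl groups from enzymes of fatty acid oxidation, the tricarboxylic acid (TCA) cycle, the respiratory chain and the defence against superoxide, and its level in muscle is known to vary with diet and exercise. It acts on proteins, so an array of transcripts reads only what follows from its loss at the RNA level, whether in the muscle fibres or through the rest of the body.

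Values are log2 intensities after robust multi-array averaging (RMA), and a difference is the mean of the knockout arrays minus the mean of the wildtype arrays on that scale, so a gene at 1 unit has 2 times the wildtype signal. The error beside a difference is limma's moderated standard error (SE), and p-values are two-sided from limma, adjusted over all tested genes with the Benjamini-Hochberg method where called adjusted. A gene passed at an adjusted p under 0.05. The groups of a gene are said not to overlap when every knockout array lay on 1 side of every wildtype array. The number of arrays limits the precision: an exact permutation test of 4 arrays against 3 cannot give a two-sided p below 0.0571. In whole muscle, fewer cells of a type and less RNA per cell cannot be told apart.

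The targeted gene was lower on every knockout array. Sirt3 read 6.68, 6.49 and 6.65 on the wildtype control arrays and 6.12, 6.19, 5.36 and 5.02 on the knockout control arrays. The groups did not overlap, but knockout replicates 1 and 2 lay closer to the wildtype arrays than to knockout replicate 4. Its difference was -0.93 (SE 0.27, exact permutation p = 0.0571). The place of these probes relative to the deletion is unknown here, and the remaining signal is no measure of remaining transcript. Fast muscle genes were bright on all arrays: Acta1, skeletal alpha-actin, read 13.21 to 13.39 over the 15 arrays, and Myh4, the fast myosin heavy chain of type IIb fibres, 12.70 to 12.89.

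Transcripts of other tissues were present on several of the 7 arrays. Relative to the median array, the log2 mean of the germ cell list (24 genes of sperm and their precursors) was 3.94 on wildtype replicate 3, 3.30 on knockout replicate 1 and 0.66 on knockout replicate 2. The mean of 13 pancreatic acinar genes lay 7.09 above the median array on wildtype replicate 2, and on the other control arrays between -0.18 and 0.67. The mean of 16 liver genes lay 1.27 above it on wildtype replicate 1 and 1.34 on knockout replicate 2. The acinar genes separated the groups. Of 9 tested acinar genes, 8 were lower in every knockout array than in any wildtype array (1.29% of all genes). Only 9 of the 13 measured acinar genes had a mean over all arrays high enough to be tested, and wildtype replicate 2 raises that mean. Values without the affected arrays are given beside some of the results they touch. "Without the 2 germ cell arrays" leaves out wildtype replicate 3 and knockout replicate 1. "Without the 4 arrays" also leaves out wildtype replicate 2 and a wildtype CR array with liver transcripts. It leaves 1 wildtype control array, replicate 1, which is then assumed to vary like the others. That array itself had a liver mean of 1.27 and an acinar mean of 0.51.

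**Figure D1:**
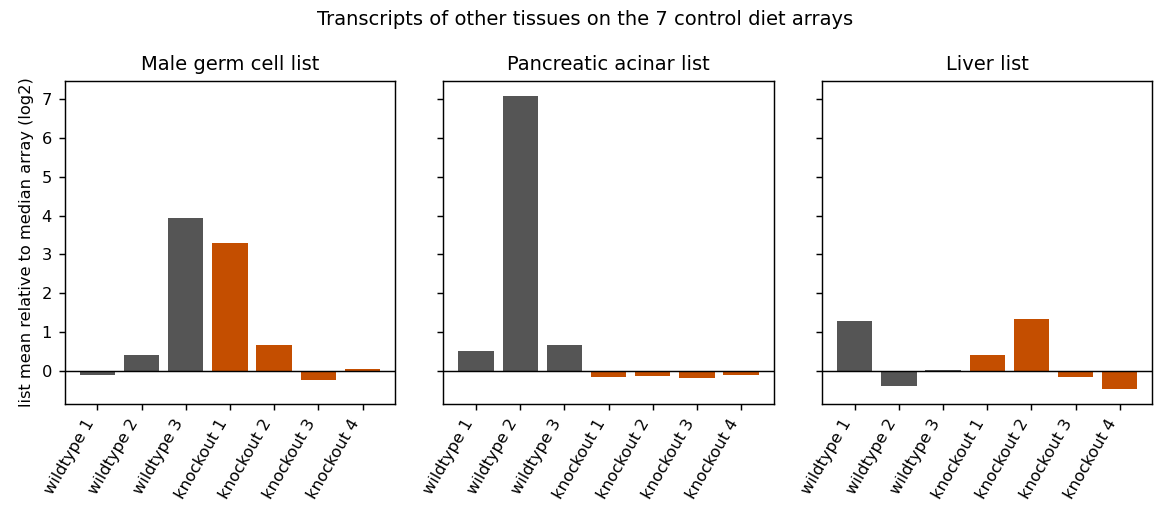
Mean of the male germ cell, pancreatic acinar and liver gene lists on each of the 7 control diet arrays, as log2 units relative to the median of all 15 arrays; grey bars are wildtype arrays and orange bars knockout arrays. Wildtype replicate 3 (3.94) and knockout replicate 1 (3.30) stand high for germ cell genes, and wildtype replicate 2 (7.09) for acinar genes.

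No gene passed the threshold. Of 12056 genes tested, 0 were higher and 0 lower in knockout muscle at an adjusted p under 0.05 (0% called in either direction, limma). At an unadjusted p under 0.05 there were 847 genes (7.03%) where a uniform spread of p-values gives 603, of which 613 (5.08%) were higher and 234 (1.94%) lower in the knockout. The groups did not overlap for 603 genes (5%), 447 of them higher (3.71%) and 156 lower (1.29%). Differences were small for most genes: the median was 0.02, the 5th to 95th percentiles ran from -0.23 to 0.23, and 35 genes differed by at least 1 log2 unit. The count of 847 was 1340 without knockout replicate 1 and 476 when only the 7 control diet arrays were fitted. Of all tested genes 57.6% lay above 0, a share that was 50.1% when wildtype replicate 3 was left out. Without the acinar wildtype replicate 2, 3 genes passed as higher, Actc1, Mybph and Mpv17l2, and 8 as lower, among them the pancreatic genes Cpa1, Clps, Ctrb1 and Prss2. The filter on low values still used all arrays in that fit. Prss2 passed this filter only through wildtype replicate 2, where it read 11.51, against 4.73 to 6.04 on the other arrays. Every gene named from here on is therefore given as a value with its error, and none as a change that passed the test over all genes. Where no adjusted p is printed beside a gene, it was 0.599 or more.

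Sirt3 lies head to head with Psmd13, which encodes a non-catalytic subunit of the proteasome's regulatory particle. In RefSeq's annotation of GRCm38.p6 the first bases of the 2 genes are 85 positions apart on chromosome 7, and the 84 bases between them (chr7:140882310-140882393, plus strand) are shown because both genes start from this stretch:

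Between Sirt3 and Psmd13: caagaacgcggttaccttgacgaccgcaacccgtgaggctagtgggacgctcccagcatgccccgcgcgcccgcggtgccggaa

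Psmd13 read 7.97, 8.07 and 8.03 in wildtype and 8.18, 8.34, 8.37 and 8.26 in knockout muscle. The groups did not overlap, with a difference of 0.26 (SE 0.08). On CR the difference was -0.06, and the 2 differences, tested against each other, differed by 0.33 (SE 0.11, limma adjusted p = 0.828). Of the 10 genes on each side of Sirt3 in chromosome order, 15 were measured and 12 passed the filter on low values.

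Cox8b, Ric8a and Ifitm2 read higher in the knockout on both diets. Cox8b, the muscle and heart isoform of a cytochrome c oxidase subunit, lies 3 genes from Sirt3 and read 12.25, 12.07 and 12.14 in wildtype against 12.43, 12.41, 12.64 and 12.60 in knockout muscle. Its lowest knockout array lay above its highest wildtype array, by 0.36 on average (SE 0.08). On CR, in other mice, the Cox8b difference was 0.38 (SE 0.08, limma adjusted p = 0.2), again without overlap. Averaged over both diets it was 0.37 (SE 0.06, limma adjusted p = 0.136), which did not pass. Ric8a, a chaperone and exchange factor for G protein alpha subunits, is the next gene on the other side of Sirt3, and its differences were 0.51 (SE 0.16) on the control diet and 0.47 (SE 0.15) on CR. Its groups overlapped on the control diet, where wildtype replicate 3 read 5.33 and the other 2 wildtype arrays 5.96 and 5.88. Ifitm2, an interferon-induced membrane protein, differed by 0.32 (SE 0.15) and 0.27. Bet1l, a vesicle transport protein next to Ric8a, lay near 0 on the control diet, at 0.03 (SE 0.06), which was -0.02 without the 4 arrays, and at 0.10 (SE 0.06) on CR, with overlap on both diets.

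**Figure D2:**
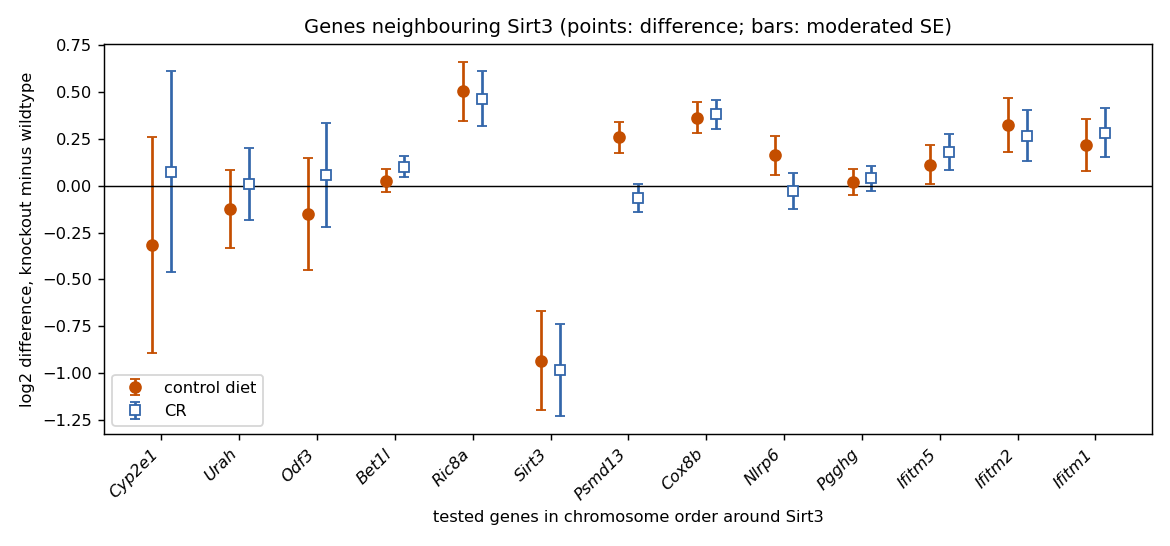
Log2 difference between knockout and wildtype of Sirt3 and its 12 tested neighbours in chromosome order, on the control diet (filled circles) and on CR (open squares); bars are moderated SEs. Sirt3 lies near -0.93 and -0.99, Cox8b near 0.36 and 0.38, Ric8a near 0.51 and 0.47, and Psmd13 at 0.26 on the control diet against -0.06 on CR.

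Genes of fatty acid synthesis showed the widest separation among the pathways. The pathway turns citrate exported from mitochondria into acetyl-CoA, malonyl-CoA and palmitate, and then elongates and desaturates the product. In fasted and fed animals its genes are known to move together under SREBP-1c and ChREBP. Of 16 lipogenesis genes, all tested, 8 were higher and 1 lower at an unadjusted p under 0.05 (5.08% and 1.94% of all genes), 14 lay above 0 (57.6% of all genes), and the list median was 0.29 against 0.02 over all genes. The groups did not overlap for 6 genes higher in the knockout and for 1 lower (3.71% and 1.29% of all genes).

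Fasn, fatty acid synthase, read 7.77, 7.34 and 7.43 in wildtype and 9.34, 9.98, 9.83 and 9.54 in knockout muscle. All 4 knockout arrays lay at least 1 unit above all 3 wildtype arrays, and the spread within each group was small beside that gap. The means were 7.52 ± 0.23 (SD, n = 3) and 9.68 ± 0.29 (SD, n = 4), which is 4.47-fold. In the fit on all 15 arrays the difference was 2.16 (SE 0.62, limma adjusted p = 0.599). In a limma fit on the 7 control diet arrays alone the SE was 0.17 and the adjusted p 0.0288, and Fasn was then the 1 gene that passed. The CR arrays widen the shared spread, since Fasn read 10.83, 9.13, 7.43 and 8.95 in the 4 wildtype mice on CR.

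The genes on either side of Fasn in the pathway followed the same order of groups. Acly, ATP citrate lyase, which makes cytosolic acetyl-CoA, read 6.61, 6.57 and 6.37 in wildtype and 7.51, 8.07, 8.14 and 7.09 in knockout muscle, a difference of 1.18 (SE 0.50). Acaca, acetyl-CoA carboxylase 1, which makes malonyl-CoA, differed by 0.99 (SE 0.42), from 6.87 to 7.05 in wildtype and from 7.63 to 8.23 in the knockout. Elovl6, which elongates palmitate, read 6.66, 5.92 and 6.07 against 7.88, 8.47, 8.22 and 7.97. Its difference of 1.92 (SE 0.63) is 3.78-fold, with no overlap. Scd1, the stearoyl-CoA desaturase, read 11.26, 10.98 and 10.91 against 11.87, 12.00, 11.96 and 12.18, a difference of 0.95 (SE 0.32). Thrsp, the thyroid hormone responsive Spot 14 protein of lipogenic tissues, read 6.59, 6.63 and 6.39 against 7.34, 7.99, 8.13 and 7.71, a difference of 1.25 (SE 0.42). For these 6 genes no knockout array reached down to a wildtype array. Slc25a1, the mitochondrial citrate carrier, is in no list and was picked after its values were seen; its difference was 1.45 (SE 0.56), also without overlap.

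**Figure D3:**
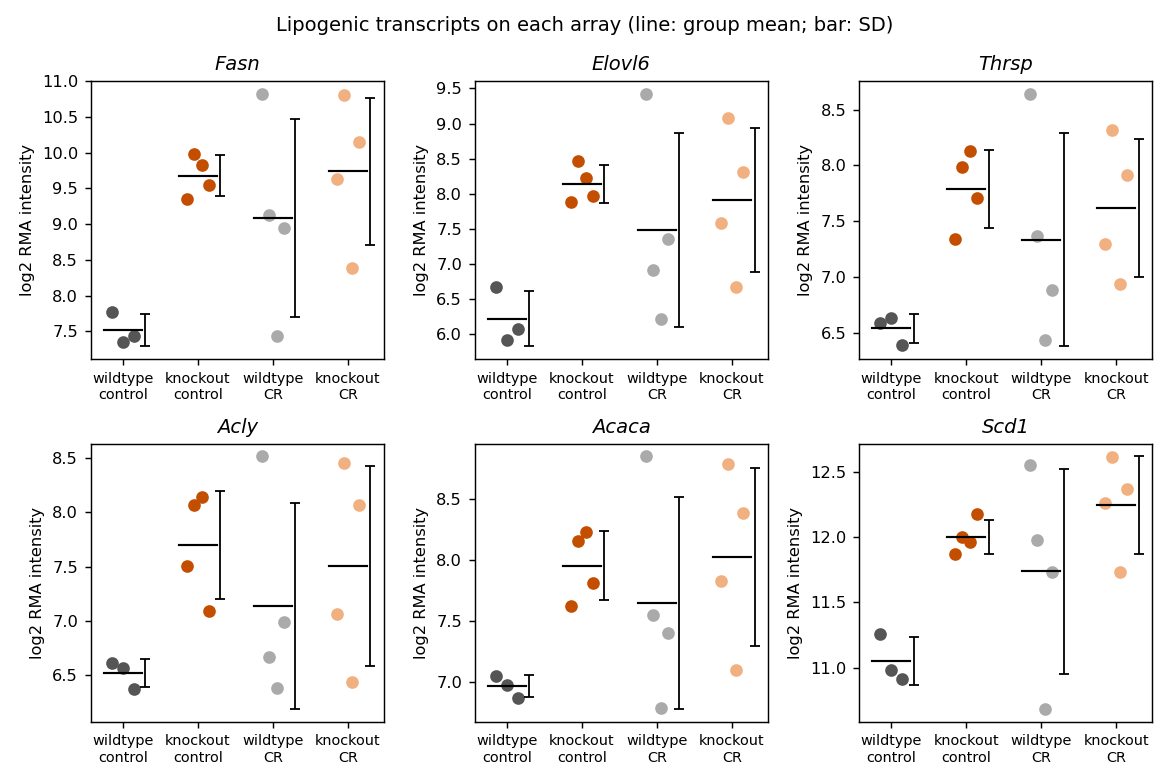
Log2 RMA intensity of 6 lipogenic genes on every array of the 4 groups; points are arrays (1 mouse each), lines group means and bars SDs. On the control diet the knockout arrays lie above the wildtype arrays for all 6 genes (Fasn 9.34 to 9.98 against 7.34 to 7.77), while the wildtype CR arrays spread widely (Fasn 7.43 to 10.83), from within the wildtype control range to above the highest knockout control array.

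The regulators and the later steps of lipid storage were less uniform. Srebf1, which encodes SREBP-1, differed by 0.37 (SE 0.15) with overlap. Mlxipl, which encodes ChREBP, differed by 0.10 (SE 0.08), and Me1, the NADPH-making malic enzyme, by 0.09 (SE 0.16). Scd2, a second desaturase, differed by 0.64 (SE 0.25) with overlap. Gpam, which starts triglyceride synthesis at the outer mitochondrial membrane, read 8.89 to 9.24 in wildtype and 8.64 to 8.80 in the knockout, a difference of -0.32 (SE 0.12). It was the only lipogenesis gene lower in every knockout array.

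Fat cells also express these genes, and adipocyte markers were set beside them. Of 11 adipocyte genes, 8 lay above 0 (57.6% of all genes) and 1 was lower at an unadjusted p under 0.05 (1.94% of all genes). The median difference was 0.04 (-0.08 without the 4 arrays, -0.17 with the germ cell, acinar and liver list means as covariates). The list mean ran from 8.05 to 8.43 in wildtype and from 8.05 to 8.66 in knockout arrays. Adipoq, adiponectin, read 7.36, 7.11 and 6.62 in wildtype and 6.75, 6.85, 6.81 and 8.02 in knockout muscle, so 3 of the 4 knockout arrays lay within the wildtype range and knockout replicate 4 above it. Retn, resistin, a secreted protein of mouse fat cells, was the 1 gene of the list higher in every knockout array, at 7.50, 7.46 and 7.23 against 8.22, 7.87, 7.84 and 7.76, a difference of 0.52 (SE 0.53). The lipid droplet proteins Cidec and Plin1 differed by 0.41 (SE 0.44) and 0.30 (SE 0.29), both with overlap. Lep, leptin, a hormone of fat cells, was lower, at 5.80, 6.65 and 5.63 against 5.30, 4.45, 5.26 and 5.41, with a difference of -0.92 (SE 0.29). Its knockout values lay near or below the filter on low values, a mean of 5.32, which Lep passed only through the wildtype control arrays. On CR, Fasn and Adipoq put the arrays of each genotype in the same order: Adipoq read 8.86, 7.99, 6.41 and 7.26 in wildtype replicates 1 to 4, whose Fasn values are given above. In the knockout CR arrays Adipoq read 8.10, 8.79, 7.22 and 8.37, and Fasn 9.63, 10.80, 8.38 and 10.14. The part of fat cells in the lipogenic values was not tested. The lipogenesis median was 0.31 without the 2 germ cell arrays, 0.32 without the 4 arrays and 0.38 with those covariates. On CR the same median was 0.08. There 0 of 16 genes had an unadjusted p under 0.05 in limma, where 5.92% of all genes did. The wildtype CR arrays alone spread over 3 units for Fasn. Tested between the diets, the genotype differences of Fasn and Elovl6 had a limma adjusted p of 0.863 and that of Thrsp one of 0.879.

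The 250 bases before the start of Fasn and of Thrsp are shown because these genes stood out in the list and their promoters are classical sites of SREBP and NF-Y binding; capitals mark the CCAAT sequence and the E-box CANNTG, each searched on both strands:

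Fasn, chr11:120824548-120824797, minus strand: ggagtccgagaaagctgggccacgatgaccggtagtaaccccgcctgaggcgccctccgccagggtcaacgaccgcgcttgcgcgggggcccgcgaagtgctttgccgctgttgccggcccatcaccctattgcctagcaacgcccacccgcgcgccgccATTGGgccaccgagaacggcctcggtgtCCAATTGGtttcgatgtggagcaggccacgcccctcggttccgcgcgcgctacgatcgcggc

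Thrsp, chr7:97417551-97417800, minus strand: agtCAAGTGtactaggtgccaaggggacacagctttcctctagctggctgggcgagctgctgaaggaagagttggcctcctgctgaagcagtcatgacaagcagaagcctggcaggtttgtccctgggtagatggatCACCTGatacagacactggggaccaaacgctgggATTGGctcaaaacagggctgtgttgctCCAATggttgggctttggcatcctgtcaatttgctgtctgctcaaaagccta

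Sequences are RefSeq's, from GRCm38.p6. Fasn holds 3 CCAAT sequences, a pair of which overlap the 1 E-box, and Thrsp holds 2 of each. Among 27018 promoters of the same length, 34.5% hold a CCAAT and 66.1% an E-box. Of the 16 lipogenesis genes 12 have an entry, of which 7 hold a CCAAT and 7 an E-box. Acly and Elovl6 hold neither in this window.

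In the fit on all 15 arrays the smallest p-values belonged to a pair of sarcomere genes, both placed in the denervation and immature fibre list. Actc1, cardiac alpha-actin, is the actin of the heart and of developing skeletal muscle. It read 11.18, 11.72 and 11.38 in wildtype and 12.51, 12.56, 12.66 and 12.20 in knockout muscle. The lowest knockout array lay above the highest wildtype array, and the difference was 1.05 (SE 0.16, limma adjusted p = 0.125), which is 2.08-fold. Mybph, myosin binding protein H, a thick filament protein, read 8.74, 9.22 and 8.73 against 10.16, 9.77, 10.03 and 9.63. Its difference was 1.00 (SE 0.16, limma adjusted p = 0.125), also without overlap. In both genes wildtype replicate 2, the array with acinar transcripts, was the wildtype array nearest to the knockout. Without that array both passed, each with a limma adjusted p of 0.00902, and with the tissue list means as covariates their limma adjusted p-values were 0.0375 and 0.0467. Neither passed without the 2 germ cell arrays (limma adjusted p = 0.255 for both), without the 4 arrays (0.0919 for Actc1 and 0.159 for Mybph) or on the 7 control diet arrays alone (0.345 and 0.517), where Fasn had the smallest p.

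On CR neither gene was higher in the knockout beyond its error. For Actc1 the wildtype CR arrays had a mean of 12.76 ± 0.31 (SD, n = 4) and the knockout CR arrays one of 12.85 ± 0.08 (SD, n = 4), so both lay above the knockout mean of 12.48 on the control diet, and their difference was 0.10 (SE 0.15). The test between diets gave 0.96 for Actc1 (SE 0.22, limma adjusted p = 0.641). For Mybph the sign turned, with -0.51 (SE 0.15) on CR and a difference between diets of 1.51 (SE 0.22, limma adjusted p = 0.0822). Neither passed over all genes.

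Promoters of the pair are shown as those of the genes with the smallest p; capitals mark the CArG box, the site class bound by serum response factor, and CCAAT in Actc1, and the E-box, the site class of the MyoD family, in Mybph:

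Actc1, chr2:114052876-114053125, minus strand: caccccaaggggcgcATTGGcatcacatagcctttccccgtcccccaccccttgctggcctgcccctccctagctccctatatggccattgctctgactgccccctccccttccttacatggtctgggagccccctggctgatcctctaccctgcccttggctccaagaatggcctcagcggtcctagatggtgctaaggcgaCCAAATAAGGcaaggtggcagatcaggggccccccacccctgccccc

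Mybph, chr1:134193198-134193447, plus strand: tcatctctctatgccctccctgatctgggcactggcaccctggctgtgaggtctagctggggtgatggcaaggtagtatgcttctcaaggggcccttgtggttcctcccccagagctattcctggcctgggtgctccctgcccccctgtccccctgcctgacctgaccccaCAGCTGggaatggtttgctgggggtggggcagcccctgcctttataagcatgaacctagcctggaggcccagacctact

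The CArG box of Actc1 lies 47 to 38 bases before its first base, and 1.4% of the promoters of this length hold one. The E-box of Mybph lies 79 to 74 bases before its first base.

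Other genes of the denervation and immature fibre list gave mixed values. Of 16 tested, Actc1 and Mybph among them, 6 were higher and 1 lower at an unadjusted p under 0.05, where 5.08% and 1.94% of all genes were, and the list median was 0.15. Chrnb1, the beta subunit of the muscle acetylcholine receptor, read 7.38, 7.72 and 7.29 against 7.83, 7.87, 7.74 and 7.81, a difference of 0.35 (SE 0.11) without overlap. Gadd45a, a growth arrest gene known to be induced by denervation, differed by 0.47 (SE 0.16) and Chrnd, the receptor's delta subunit, by 0.29 (SE 0.10), both with overlap. Myod1, the myogenic factor of satellite cells and fast fibres, differed by -0.57 (SE 0.24) and Myog, myogenin, by 0.42 (SE 0.20), so the 2 myogenic factors differed in sign. Without the 4 arrays Myod1 was 0.15.

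The 12 genes with the smallest p among those higher in the knockout, Actc1 and Mybph included, were all without overlap. Apobec2, a muscle member of the cytidine deaminase family, read 10.97, 11.00 and 10.95 against 11.29, 11.43, 11.25 and 11.35. That is a difference of 0.36 (SE 0.07, limma adjusted p = 0.32), larger than the spread within either group. Ndufaf4, an assembly factor of respiratory complex I, read 7.59, 7.47 and 7.43 against 7.77, 7.88, 8.06 and 7.78, a difference of 0.38 (SE 0.07, limma adjusted p = 0.365). Emc8, a subunit of the endoplasmic reticulum membrane complex, differed by 0.33 (SE 0.07, limma adjusted p = 0.365). Polr2f, a subunit shared by the nuclear RNA polymerases, differed by 0.29 (SE 0.07). Rbm38, an RNA-binding protein that acts in muscle differentiation, read 9.56, 9.56 and 9.32 against 9.91, 10.04, 10.05 and 9.62, a difference of 0.43 (SE 0.10), against -0.08 on CR. The others were Cox8b, described above, Rsrp1 at 0.63 (SE 0.15), Gm11517 at 0.51 (SE 0.11), Rab40b at 0.39 (SE 0.09) and Misp3 at 0.30 (SE 0.07).

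The lower side was led by Nnat, neuronatin, a small membrane protein of the endoplasmic reticulum. It read 7.73, 7.54 and 7.24 in wildtype and 6.32, 5.06, 5.57 and 5.91 in knockout muscle. All knockout arrays lay below all wildtype arrays, with a difference of -1.79 (SE 0.36, limma adjusted p = 0.365), a wildtype level 3.45-fold that of the knockout. On CR Nnat did not separate the genotypes (-0.03, SE 0.33), and the difference between the diets was -1.76 (SE 0.48, limma adjusted p = 0.763). Mstn, myostatin, the secreted inhibitor of muscle growth, read 9.14, 9.11 and 9.04 against 8.35, 8.55, 8.83 and 8.15. Its difference was -0.63 (SE 0.16) without overlap, and -0.17 on CR. Odc1, ornithine decarboxylase, the first step of polyamine synthesis, differed by -0.77 (SE 0.18), from 7.80, 8.25 and 8.61 to 7.67, 7.32, 7.38 and 7.44.

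The remaining lower genes had smaller differences or tracked another tissue. Bace1, the beta-secretase, differed by -0.51 (SE 0.12), Mlf1 by -0.55 (SE 0.13), Slc39a10, a zinc importer, by -0.47 (SE 0.12), Dab2, an endocytic adaptor, by -0.43 (SE 0.12), Mylk4, a myosin light chain kinase, by -0.36 (SE 0.10) and Pitpna, a phosphatidylinositol transfer protein, by -0.23 (SE 0.06). Slc39a10 was -0.10 without the 4 arrays. Mcpt4, a mast cell protease, read 6.21, 5.85 and 5.51 against 5.41, 5.42, 5.35 and 5.42, a difference of -0.45 (SE 0.12), and passed without the 4 arrays, at -0.81 (limma adjusted p = 0.011). 2210010C04Rik had the largest difference of the 24 genes at -4.05 (SE 1.08), but read 12.88 on the acinar wildtype replicate 2 and 6.42 and 6.44 on the other wildtype arrays, against 4.31 to 4.62 in the knockout. Without the 2 germ cell arrays it was -5.05 and without the 4 arrays -1.83. This gene passed the filter on low values only through wildtype replicate 2.

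**Figure D4:**
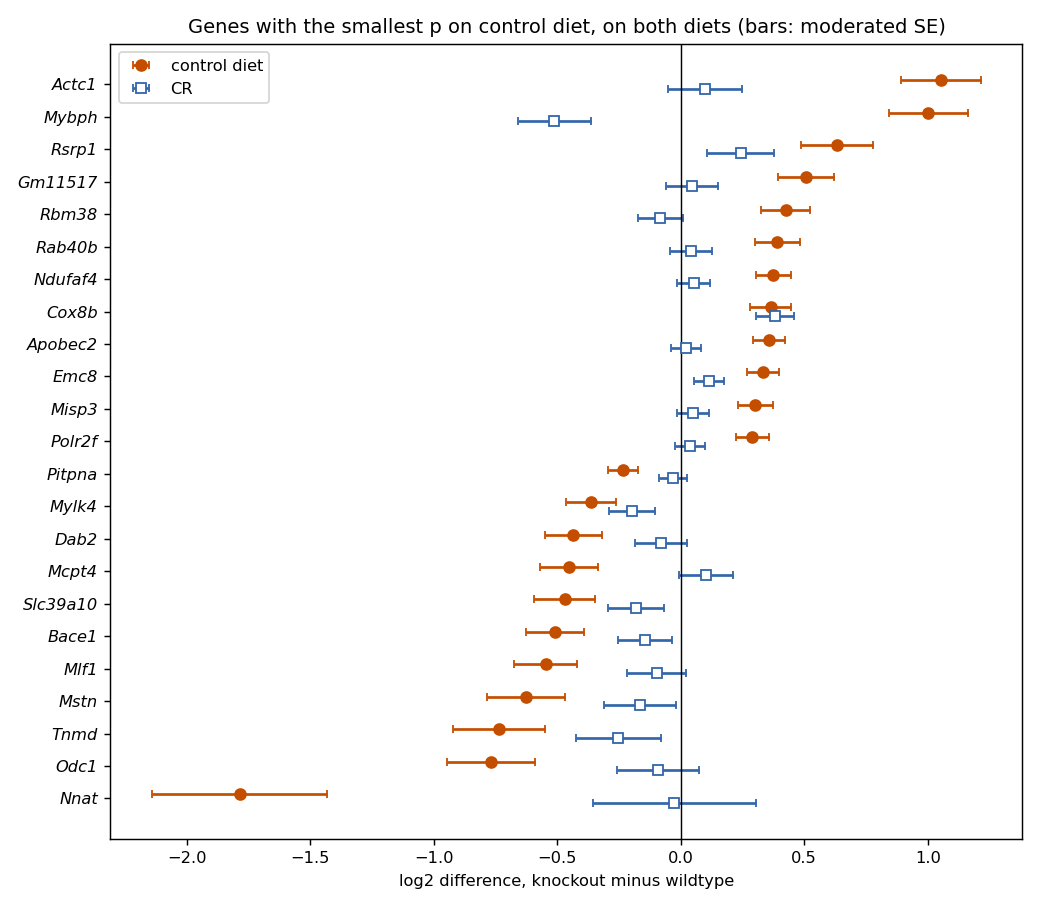
Log2 difference between knockout and wildtype of the genes with the smallest p in each direction on the control diet (filled circles) and of the same genes on CR (open squares); bars are moderated SEs, and 2210010C04Rik (-4.05) is left out for scale. On the control diet the values run from -1.79 (Nnat) to 1.05 (Actc1), and on CR all but Cox8b (0.38) and Mybph (-0.51) lie between -0.25 (Tnmd) and 0.24 (Rsrp1).

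Because these 24 genes were chosen by their p on the control diet, their separation there is a description. The CR arrays were not used in that choice other than for the spread and the filter. On CR 21 of the 24 had the same sign and 23 had a smaller absolute difference. No shares over all genes stand beside these counts, and the choice by p on the control diet by itself favours smaller differences on CR. Cox8b was the 1 gene of the 21 with an unadjusted limma p under 0.05 on CR, where 5.92% of all genes had one in either direction. Tested against each other, the 2 diets gave an unadjusted limma p under 0.05 for 19 of the 24, where the background of all genes is 5.71%, and an adjusted p under 0.05 for none. Since that test contains the control diet difference by which the genes were chosen, this share supports nothing by itself. On CR 2 genes of 12056 passed, both lower (0.0166%): Hspb1 and Ankrd1, neither of which was among the 24.

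Mitochondrial transcripts lay slightly above wildtype as a group. Of 35 tested complex I genes, 33 lay above 0 with a median of 0.11, and of 39 genes of complexes II to V all 39 did, with a median of 0.12. Over all genes 57.6% lay above 0, or 50.1% without wildtype replicate 3. At an unadjusted p under 0.05 there were 4 and 7, all higher, where 5.08% of all genes were higher. Ndufa7, an accessory subunit of complex I, differed by 0.26 (SE 0.07) without overlap: its highest wildtype array read 8.26 and its lowest knockout array 8.35. Ndufs5 differed by 0.39 (SE 0.14), Atp5l, an ATP synthase subunit, by 0.31 (SE 0.12) and Cox6a2, the muscle isoform of a cytochrome c oxidase subunit, by 0.18 (SE 0.07).

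The arrays within the knockout group differed in these lists by more than the groups did. The mean of the complex I list, relative to the median array, was -0.10 on knockout replicate 1, 0.06 on replicate 2, 0.26 on replicate 3 and 0.03 on replicate 4, against 0.02, -0.07 and -0.11 in wildtype. Only knockout replicate 3 stood clear of all other arrays. Without the 2 germ cell arrays the medians were 0.12 for complex I and 0.16 for complexes II to V, and without the 4 arrays 0.07 and 0.12. With the germ cell, acinar and liver list means as covariates, they were 0.01 and 0.02. The part of other tissues in the result was not tested further.

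Enzymes that SIRT3 is known to deacetylate had a median of 0.10. It was 0.12 without the 2 germ cell arrays, 0.07 without the 4 arrays and -0.01 with the covariates. Of 21 tested, 18 lay above 0, beside 57.6% of all genes. An unadjusted p under 0.05 was found for 1 of the 21, below the 7.03% of all genes: Got2, the mitochondrial aspartate aminotransferase, at 0.20 (SE 0.09). Sod2, the superoxide dismutase of the matrix, differed by 0.04 (SE 0.08), Idh2, isocitrate dehydrogenase, by 0.12 (SE 0.20), Acadl, the long-chain acyl-CoA dehydrogenase, by 0.14 (SE 0.17) and Glud1, glutamate dehydrogenase, by -0.03 (SE 0.12). In each of these the groups overlapped. Of the 7 sirtuins, Sirt3 alone had an unadjusted p under 0.05. TCA cycle genes had a median of 0.09, with Mdh2, malate dehydrogenase, at 0.17 (SE 0.06), and regulators of mitochondrial biogenesis 0.06. Without the 2 germ cell arrays these 2 medians were 0.11 and 0.06, and without the 4 arrays 0.07 and 0.04. With the covariates both medians were -0.01.

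Fatty acid uptake and oxidation did not shift as a list. Of 26 genes tested, 13 lay above 0 (57.6% of all genes), and 0 had an unadjusted p under 0.05 in either direction (7.03% of all genes). The list had a median of -0.00 (-0.09 without the 4 arrays, -0.23 with the covariates). Its spread came mainly from 1 mouse: the list mean was -0.56 relative to the median array on knockout replicate 1, between -0.04 and 0.27 on the other knockout arrays and between -0.22 and 0.26 in wildtype. Pdk4, the kinase that blocks pyruvate entry and rises with fasting, read 8.89 on knockout replicate 1, 12.05, 12.50 and 12.73 on the other knockout arrays, and 12.55, 11.95 and 12.32 in wildtype. Ucp3, an uncoupling protein of the same fasting programme, read 6.43 on that array and 8.79 to 10.18 on the other 3. Fasn on knockout replicate 1 was 9.34, the lowest of the 4 knockout arrays and above all wildtype arrays.

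Genes of protein synthesis and turnover lay above 0 in 35 of 38 mitochondrial ribosome genes, 27 of 31 proteasome genes and 26 of 27 cytosolic ribosome genes, where 57.6% of all genes did. Of the mitochondrial ribosome genes, 9 were higher and 1 lower at an unadjusted p under 0.05 (5.08% and 1.94% of all genes), with a median of 0.14, which was 0.09 without the 4 arrays and 0.08 with the covariates. Mrps2 differed by 0.22 (SE 0.06) and Mrpl37 by 0.21 (SE 0.07), both without overlap. Of the proteasome genes, 9 were higher and 0 lower at that threshold, 7 were higher without overlap (3.71% of all genes), and the median was 0.11. Psmb3, a beta subunit of the core, read 11.11, 11.09 and 10.95 against 11.35, 11.31, 11.28 and 11.26, a difference of 0.25 (SE 0.07). Psma7, an alpha subunit, differed by 0.34 (SE 0.10) and Psmd3, a lid subunit, by 0.24 (SE 0.07), both without overlap. On CR the proteasome median was -0.06 and without the 4 arrays on the control diet 0.05. Cytosolic ribosome genes had a median of 0.11, with 3 higher at an unadjusted p under 0.05.

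Stress and folding genes were scattered. The heat shock list had a median of -0.07 over 27 genes, and a median of 0.23 without the 4 arrays. At an unadjusted p under 0.05, 1 was higher and 2 were lower (5.08% and 1.94% of all genes). Dnajb1, a co-chaperone of HSP70, read 6.32, 8.17 and 8.39 in wildtype and 6.35, 7.36, 6.56 and 6.14 in the knockout, so 2 wildtype arrays, those with acinar and with germ cell transcripts, carried the difference of -1.02 (SE 0.46). Hspb7, a small heat shock protein of heart and skeletal muscle, read 10.46, 10.30 and 10.29 against 11.49, 10.68, 10.89 and 10.59, a difference of 0.56 (SE 0.18) without overlap. Hspb7 had the opposite sign on CR, -0.62 (SE 0.17), and the 2 diets differed by 1.19 (SE 0.25, limma adjusted p = 0.641). Endoplasmic reticulum folding genes had a median of -0.12, which was -0.03 without the 4 arrays and 0.05 with the covariates, with Mlec, malectin, at 0.49 (SE 0.13). Antioxidant and NRF2 genes had a median of 0.04, mitochondrial chaperones and proteases 0.01, stretch and Z-disc genes 0.01, and the atrophy and autophagy list, which holds Mstn, -0.07.

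Fibre type and fuel genes differed by list. Fast contractile genes had a median of -0.00, though Mylpf, the fast regulatory light chain, differed by 0.27 (SE 0.09) and Myh1, the type IIx myosin heavy chain, by 0.38 (SE 0.15), both without overlap. Of 16 slow contractile genes 10 lay below 0, where 57.6% of all genes lay above 0. Their median was -0.16, which was -0.36 without the 2 germ cell arrays, -0.50 without the 4 arrays and -0.44 with the covariates. The list mean, relative to the median array, was 0.56, 0.13 and -0.23 in wildtype and -0.29, 0.15, -0.11 and 0.36 in the knockout. The groups thus overlapped, and the fit without the 4 arrays kept only the highest of these wildtype arrays. The errors were wide: Myh7, the slow myosin heavy chain, differed by -0.43 (SE 0.42). Casq2, the slow-fibre calsequestrin, differed by 0.61 (SE 0.23), opposite to most of its list and with overlap. Without the 4 arrays Casq2 was 0.20. The glycolysis and glycogen list had a median of 0.03, and of -0.01 with the covariates. In it Gbe1, the glycogen branching enzyme, read 8.82, 8.64 and 8.48 against 8.84, 9.41, 9.72 and 8.93, a difference of 0.58 (SE 0.18). Gys1, muscle glycogen synthase, differed by 0.18 (SE 0.07). Without the 4 arrays Gbe1 was 0.54 and Gys1 0.08. Insulin signalling and clock genes had medians of -0.09 and 0.03. In either list 0 genes had an unadjusted limma p under 0.05, where 7.03% of all genes did. The clock median was -0.08 without the 2 germ cell arrays and 0.14 with the covariates.

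Tendon markers lay lower as a list. Of 12 tendon markers, 10 lay below 0, where 57.6% of all genes lay above 0. In every knockout array 5 were lower (1.29% of all genes), and 2 were lower at an unadjusted p under 0.05 (1.94% of all genes). The list median was -0.33 (-0.39 without the 4 arrays, -0.17 with the covariates). Tnmd, tenomodulin, a membrane protein of tendon cells, read 7.17, 7.45 and 7.01 against 6.64, 6.48, 6.67 and 6.11, a difference of -0.74 (SE 0.19). Comp, cartilage oligomeric matrix protein, read 6.88, 6.87 and 6.73 against 6.53, 6.38, 6.25 and 6.16, a difference of -0.50 (SE 0.22). Chad, chondroadherin, differed by -0.72 (SE 0.39), also without overlap.

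Type I collagen genes lay lower with the tendon markers, while the median of the matrix list was near 0. That median was -0.04 over 22 genes, with 5 lower and 1 higher at an unadjusted p under 0.05 (1.94% and 5.08% of all genes). Col1a1 differed by -0.67 (SE 0.22), Col1a2 by -0.60 (SE 0.21) and Sparc, a collagen-binding matrix protein, by -0.33 (SE 0.10), each with overlap through knockout replicate 1. Col1a1 was -0.44 without the 4 arrays and -0.28 with the covariates. Col4a2, a basement membrane collagen, differed by 0.26 (SE 0.09). The amount of tendon in a muscle sample was not measured, and its part in these values was not tested.

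Markers of other cell types within muscle gave mixed values. Macrophage and leukocyte genes had a median of -0.02, with the class II antigen presentation genes at the low end: H2-Eb1 read 7.09, 6.80 and 6.70 against 6.54, 6.43, 6.23 and 6.37, a difference of -0.47 (SE 0.19), H2-Ab1 differed by -0.58 (SE 0.28) and Cd74 by -0.61 (SE 0.35). Without the 4 arrays the macrophage and leukocyte median was -0.33, with wildtype replicate 1 as the only wildtype control array. The mean of the 20 measured genes, relative to the median array, was 0.41 on that array. It was 0.05 and 0.17 on the other wildtype control arrays and 0.02 to 0.24 in the knockout. Endothelial markers had a median of 0.09 (9 of 12 above 0) and smooth muscle and pericyte markers 0.09 (10 of 12), beside 57.6% of all genes. Schwann cell markers had a median of 0.06 and satellite cell markers -0.02. Interferon-stimulated genes had a median of 0.16, which was 0.05 without the 4 arrays and 0.14 with the covariates. Of these 12 genes 11 lay above 0, and 0 had an unadjusted limma p under 0.05 (57.6% and 7.03% of all genes). The erythroid list had 2 tested genes, with a median of 0.22, and kidney and gut genes a median of 0.03.

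**Figure D5:**
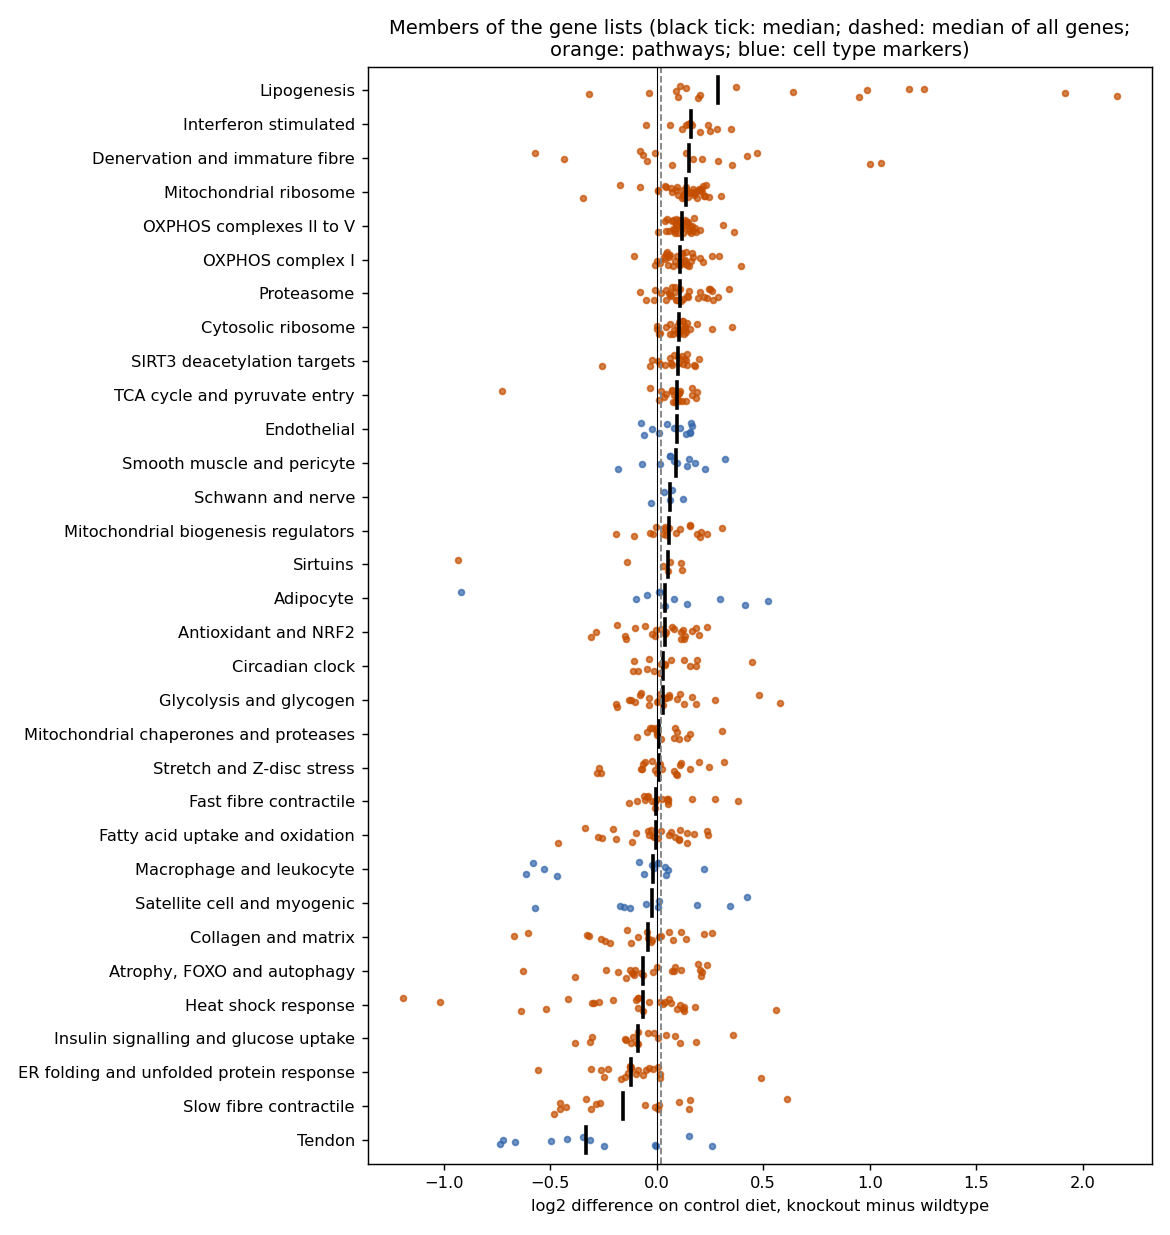
Log2 difference on the control diet of each tested member of the gene lists other than germ cell, acinar, liver, kidney and gut, and erythroid genes, 1 row per list, sorted by the list median (black tick); orange points are pathway genes, blue points cell type markers, and the dashed line is the median of all genes (0.02). Tendon markers have the lowest median (-0.33) and lipogenesis genes the highest (0.29), with Fasn at 2.16 the farthest point.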

How the data were processed

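Total RNA of 15 gastrocnemius muscles was read on biotin-labelled Affymetrix mouse arrays, per the labels. The authors deposited log2 intensity values made with RMA, per the submitters' processing notes; the sources used here name neither its version nor any array batch. The table holds 35556 probe sets. Platform annotation gave 1 symbol for 21789, several for 1621 and lists none for 12146. RefSeq (GRCm38.p6) matched 21698 by Entrez identifier and gave sequences and gene order.

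Each gene was represented by its brightest probe set. Of 19938 genes, 12056 had a mean of at least 5.32, the 40th percentile of listed probe sets. limma 3.58.1 (R 4.3.3) fitted 1 mean per group on 15 arrays (lmFit, eBayes), with Benjamini-Hochberg adjustment; permutation p-values are exact and doubled. Probe sets without 1 symbol (5466 above the same filter) gave 0 genes past the threshold in limma, with 417 at an unadjusted p under 0.05. The fit was tested on simulated data. Figures used Python 3.11.15 with matplotlib 3.10.9.

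The gene sets (37 lists, 787 entries, 726 measured) and all choices were made with earlier results of these data known. Named are Sirt3, the 12 genes with the smallest p in each direction, up to 4 members of each list with the smallest p, the neighbours of Sirt3 and defining markers; other list members were picked with their values in view. Alternatives were the filter, the choice of probe set, normalization, the prior, the arrays in the fit, array weights, a replicate block, tissue covariates and, added after seeing the data, the genotype difference averaged over diets. Same-numbered wildtype and knockout arrays had correlations of -0.64, 0.15 and -0.48. The highest correlation, 0.76, was between wildtype replicate 3 and knockout replicate 1, the arrays with germ cell transcripts. With so few arrays, and with transcripts of other tissues among them, these correlations cannot decide whether the numbers pair mice.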

Additional observations from a re-analysis of the deposited data

Results flagged for a closer look

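Of 190 genes named or listed, 18 had 1 knockout control array apart from the other 3 by Dixon's criterion; chance alone gives about 1 in 20 groups, or 5%. Knockout replicate 1 was most often that array. It read high for the germ cell genes Spata18 (8.06, the others at most 5.47), Odf2 (8.42, at most 6.29), Tssk3 (7.76, at most 5.52), Hspa1l (9.75, at most 8.83) and Syce1 (6.45, at most 4.09). It also read high for Cd68 (8.37, the others 6.15 to 6.30), Cd74 (7.29, at most 6.92) and Sparc (10.87, at most 10.53), and low for Gm11517 (5.90, the others 5.99 to 6.01), Ifitm5 (5.71, at least 5.97) and 2210010C04Rik (4.31, at least 4.58).

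Knockout replicate 2 read high for Ndufa7 (8.44, the others 8.35) and low for Lep (4.45, at least 5.26). Knockout replicate 3 read high for Ppard (8.16, where wildtype replicate 3 read 7.60 and the other wildtype arrays 7.95 and 7.97). Knockout replicate 4 read high for Adipoq (8.02, the others 6.75 to 6.85) and low for Mlec (8.29, at least 8.74), Col6a1 (6.71, at least 6.97) and Scx (5.64, at least 5.88). For Mlec, the array apart lay within the wildtype range, so the other 3 carry its difference. The causes were not tested.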

How the results depend on the processing

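On the control diet, 0 genes passed in either direction, and this count moved under a few settings: 1 higher (Fasn) with only the 7 control diet arrays, 5 lower without the 4 arrays with another tissue, and 3 higher and 2 lower with the tissue list means as covariates. The 5 genes that passed with the covariates were 2210010C04Rik, Carhsp1, Actc1, Cela1 and Mybph. Cela1 belongs to the acinar list whose mean is a covariate, and it passed the filter on low values only through wildtype replicate 2. Leaving out 1 array gave 0 to 3 higher and 0 to 8 lower. Leaving out wildtype control replicate 2 gave the 3 and 8, and leaving out wildtype CR replicate 3 gave 1 higher, Actc1. Among the 8, Prss2 and 2210010C04Rik passed the filter on low values only through wildtype control replicate 2. On CR the 2 lower genes became 0 with no filter, with quantile normalization, with a trended and robust prior and with the replicate block, 4 with probe sets tested singly, 7 with array weights, 6 without the 2 germ cell arrays, 13 without the 4 arrays and 8 with the covariates; leaving out 1 array gave 0 to 4. The difference between diets, 0 genes in either direction, became 1 higher at the 60th percentile filter, 2 higher and 4 lower without the 4 arrays, and 3 higher and 1 lower with the covariates; leaving out 1 array gave 0 to 1 higher and 0 to 6 lower. The replicate block left 0 and 0 on the control diet. Of 82 genes given with a difference, 73 kept its sign under all settings and 9 did not, all of them at an adjusted p over 0.05 in limma. Without the 4 arrays the difference was -0.018 for Bet1l, 0.37 for Dnajb1, -0.16 for Idh2 and 0.15 for Myod1. With the covariates it was -0.029 for Bet1l, -0.074 for Acadl, -0.217 for Idh2 and -0.087 for Sod2. Averaged over diets it was -0.031 for Hspb7 and -0.0031 for Mlxipl. Leaving out 1 array gave -0.012 to 0.057 for Bet1l, -0.196 to 0.061 for Glud1, -0.040 to 0.335 for Idh2 and -0.020 to 0.104 for Sod2. The cause was not tested. The low number of arrays limits every comparison.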
